A study of Caenorhabditis elegans with 2 samples.

Results

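HLH-17 belongs to the Olig family of basic helix-loop-helix transcription factors and is known in Caenorhabditis elegans from glial cells of the head. Where the tagged protein was recovered on the genome was measured by chromatin immunoprecipitation and sequencing (ChIP-seq). The 9 genes described here, of 19973 annotated protein-coding genes, are F56G4.6, wbp-4, cux-7, C07H6.2, lig-4, pinn-1, thoc-5, cyn-10 and W04C9.4. They were chosen by the deposited pooled signal, but not by it alone, since other genes lie at peaks of like strength. Their starts lie beside some of the strongest peaks of the list that had been thresholded on agreement between replicates. Those starts lie at 6 of its peaks, and 109 others make up the rest. Because signal selected the genes, signals and ranks below are a description and carry no test.

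Both biological replicates are whole L1 larvae of strain OP643, of mixed sex and 6 h old, starved after bleaching. The strain has the unc-119(tm4063) mutation and carries wgIs643, a transgene with hlh-17 joined to TY1, EGFP and 3xFLAG tags and with unc-119(+) as rescue. The transgene adds tagged hlh-17 to the worm's own gene, and whole larvae sum the signal of every cell type. The sample descriptions give an antibody against GFP, while the antibody field of the labels names hlh-17. Whether the worm's own HLH-17 was also recovered is therefore not settled by the labels. Chromatin was sonicated to 200 to 800 bp. All samples form 1 group, so no comparison between conditions exists, and the peak lists carry no read numbers, so depth is unknown. Each relaxed list (replicate 1, replicate 2 and both pooled) holds 30000 peaks, and signals are on scales that differ between lists. A signal is therefore given as its ratio to the median of its own list.

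Factors of this class bind DNA as dimers at E-boxes (CANNTG, where N is any base), usually in promoters and enhancers close to the genes they regulate. In worms the promoter of a gene commonly lies just upstream of its annotated start, and a short stretch between genes read in opposite directions can serve both. Because many worm transcripts lose their first stretch by trans-splicing to a leader RNA, an annotated start need not be the place where transcription begins. The genes here belong to several unrelated processes. Ligase 4 (lig-4) seals DNA ends in non-homologous end joining, and THOC-5 is a subunit of the THO complex, which links transcription to mRNA export. CYN-10 is a cyclophilin and PINN-1 a parvulin, members of separate families of peptidyl-prolyl isomerases. WBP-4 is named for a WW-domain-binding protein that in humans associates with the splicing machinery.

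The 6 peaks shared a sequence. The longest word found on either strand within 60 bp of all 6 summits had 9 letters, CCGAGAGGA (TCCTCTCGG on the other strand), and it was the only word of that length common to them. It was again the longest common word when 50 or 100 bp on each side were searched, while the most frequent word of 10 letters lay at 5 of the 6. An earlier scan of the whole list, these peaks included, had already brought up 6-letter pieces of this word, and the genes were chosen with its results known. The choice of genes is therefore not known to be independent of the sequence. The copies at 3 of the peaks are shown because they make the shared stretch visible. Each is read on the forward strand of ce11, taken from the RefSeq sequence of WBcel235, with the word in capitals and 10 bases on each side, for cux-7 (chrIII:7520803-7520831), thoc-5 (chrIII:5349415-5349443) and cyn-10 (chrII:6913459-6913487).
cux-7: aataagttgtCCGAGAGGAgttcaccaca
thoc-5: aaaatgctgtCCGAGAGGAgtccgcggga
cyn-10: aatttattgtCCGAGAGGAgtacacgact

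The likeness went beyond the word. Aligned on it, the copies of all 6 peaks had T at the second base after the word and C at the fourth. After the word, 5 of 6 had G at base 1 and C at bases 6 and 9. Before it, counted away from the word, 5 of 6 had T at bases 1, 3 and 4 and A at bases 9 and 10. The pattern identical in all 6 was thus CCGAGAGGANTNC, of 13 letters (GNANTCCTCTCGG on the other strand). The longer surroundings of the summits are shown for the same genes on the gene's own strand, here the reverse strand for each, outside annotated transcripts. Capitals mark the word, or at cux-7 a copy of it with 1 mismatch, in chrIII:7520846-7520906 (cux-7), chrIII:5349402-5349501 (thoc-5) and chrII:6913432-6913552 (cyn-10).
cux-7: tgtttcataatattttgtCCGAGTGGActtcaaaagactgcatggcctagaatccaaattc
thoc-5: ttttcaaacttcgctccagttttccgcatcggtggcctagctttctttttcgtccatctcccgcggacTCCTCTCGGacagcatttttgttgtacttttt
cyn-10: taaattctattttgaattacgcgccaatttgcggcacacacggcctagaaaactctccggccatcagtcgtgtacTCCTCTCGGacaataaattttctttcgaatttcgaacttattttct

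Each peak is described next with its genes. The peak of rank 1 in the pooled list lay between F56G4.6 and wbp-4 (chrI:11374361-11374546). F56G4.6 (WBGene00010161, chrI:11364326-11374334) and wbp-4 (WBGene00010159, chrI:11374620-11380127) are read away from each other and their starts are 286 bp apart. The summit, at 11374455, was 121 bp upstream of F56G4.6, whose gene runs over 10009 bp on the reverse strand, and 165 bp upstream of wbp-4, of 5508 bp on the forward strand. The signal ratio was 9.27 in replicate 1 and 7.79 in replicate 2, 8.53 ± 1.05 (SD, n = 2). The peak held rank 1 in both, and the replicate summits were 3 bp apart. Of the other pooled peaks within 5 kb of either start, the strongest had rank 10859, and the signal of the first was 8.66 times that of this one. The peak lay wholly in the stretch between the genes.

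The peak of rank 3 (chrIII:7520768-7520923) lay beside 3 starts. Its summit, at 7520846, was 1 bp upstream of the annotated start of cux-7, which runs on the reverse strand. Both other genes run on the forward strand, C07H6.2 from 163 bp and lig-4 from 617 bp past the summit. C07H6.2 is a gene of 324 bp that lies wholly between the peak and lig-4, with 130 bp from its end to the first base of lig-4. The signal ratio was 6.83 in replicate 1 and 6.23 in replicate 2, 6.53 ± 0.42 (SD, n = 2), and the rank was 3 in both. The summits of the replicates were 21 bp apart, at 18 and 3 bp from the pooled summit. The next pooled peak within 5 kb of these starts had rank 11646, with a signal ratio of 1.06. No separate peak of the thresholded list marked the start of lig-4: the nearest pooled peak past its start, 595 bp downstream, had rank 28178. The genes span chrIII:7518628-7520845 (cux-7, WBGene00000854), chrIII:7521009-7521332 (C07H6.2, WBGene00015579) and chrIII:7521463-7524870 (lig-4, WBGene00002986). cux-7 has 3 annotated transcript starts and the summit was closest to the most upstream of them.

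The other 4 peaks each had a single start within 1 kb. At pinn-1 the summit (2889391, peak chrII:2889321-2889456, rank 6) was 384 bp upstream of the start of the gene (WBGene00022448, chrII:2885514-2889007, reverse strand). The signal ratio was 4.24 in replicate 1 and 4.06 in replicate 2, 4.15 ± 0.13 (SD, n = 2), with ranks 10 and 5. This was the only pooled peak within 5 kb of pinn-1. It was the most even of the 6 peaks between replicates.

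At thoc-5 the summit (5349441, peak chrIII:5349249-5349632, rank 9) was 40 bp upstream of the start of the gene (WBGene00021311, chrIII:5345931-5349401, reverse strand). The peak covered the start itself. The signal ratio was 3.99 in replicate 1 and 3.68 in replicate 2, 3.83 ± 0.22 (SD, n = 2), with ranks 14 and 9. The only other pooled peak within 5 kb had rank 7625 and lay 2054 bp upstream. The replicate summits were 28 bp apart, the widest gap among the 6 peaks.

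At W04C9.4 (WBGene00021026, chrI:461995-462651, forward strand), a gene of 657 bp, the summit (461747, peak chrI:461555-461938, rank 12) was 248 bp upstream of the start. The replicates differed most here. The signal ratio was 4.76 in replicate 1 and 2.85 in replicate 2, 3.80 ± 1.35 (SD, n = 2), with ranks 5 and 25. The authors' estimated q, a false discovery measure deposited beside each signal, was 0.0638 in replicate 1, and the estimate in replicate 2 was 1.37, above the range of a probability. W04C9.4 also had the most company, with 8 pooled peaks within 5 kb. The strongest of the others, rank 956 with a signal ratio of 1.59, lay 2635 bp downstream of the start, beyond the end of the gene, and was found 2637 bp downstream in replicate 1, with a signal ratio of 1.60 and rank 1279, and 2634 bp downstream in replicate 2, with 1.27 and rank 4725.

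At cyn-10 the summit (6913492, peak chrII:6913300-6913683, rank 17) was 127 bp upstream of the start of the gene (WBGene00000886, chrII:6912540-6913365, reverse strand), and the peak covered the start. The signal ratio was 3.64 in replicate 1 and 2.88 in replicate 2, 3.26 ± 0.54 (SD, n = 2), with ranks 18 and 24. The estimated q was 0.0638 in replicate 1 and 1.30 in replicate 2. Within 200 bp of this summit, but no closer to it than 44 bp, lay a stretch with 134 matches elsewhere in the genome (at least 50 bp at 90% identity or more). The other 5 peaks had 0 such matches, and with 100 bp on each side and a length of at least 100 bp all 6 had 0. Whether the repeated stretch affects the signal at cyn-10 was not tested.

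**Figure D1:**
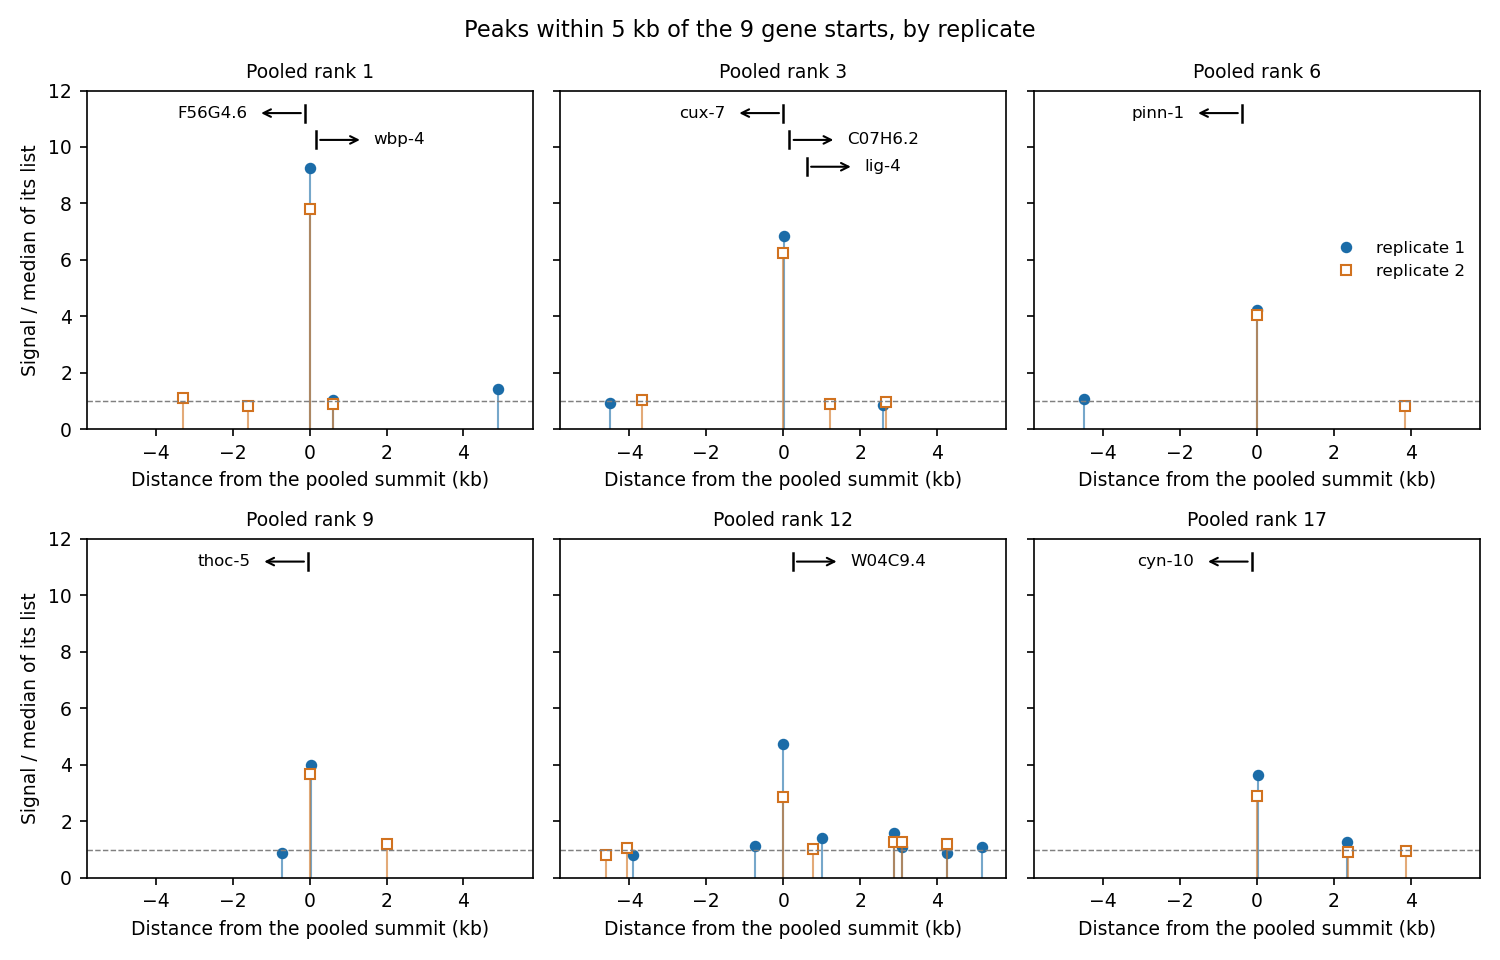
Signal of every peak within 5 kb of the 9 gene starts, as a ratio to the median of its list (vertical axis), against the distance from the pooled summit in kb, with 1 panel per peak; filled circles are replicate 1, open squares replicate 2, and arrows mark gene starts and their direction. In each panel 1 position stands at a ratio between 2.85 and 9.27 in both replicates, while the other peaks lie near the dashed line at the list median.

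In order of mean signal ratio, the peak of F56G4.6 and wbp-4 came first and that of cux-7, C07H6.2 and lig-4 second, and both values of the first exceeded 6.83 and 6.23, the values of the second, replicate by replicate. The values of both exceeded those of the other 4 peaks. Among these 4, pinn-1 stood above thoc-5 and cyn-10 in each replicate, but W04C9.4 could not be placed, because its replicate 1 value exceeded, and its replicate 2 value lay below, those of the other 3. With 2 replicates, no order within these 4 that involves W04C9.4 is larger than the spread.

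Around these summits the windows were otherwise ordinary. The 9 windows together held 23 distinct pooled peaks, 20 of replicate 1 and 22 of replicate 2. The 17 pooled peaks that were not the chosen ones had ranks of 956 to 29210 and signal ratios of 0.81 to 1.59. The median number of pooled peaks within 5 kb was 4 (1 to 8) over the 9 genes and 3 over all protein-coding genes, of which 92.5% had at least 1. A relaxed peak near a start is thus common. A thresholded summit within 5 kb is not: 1.31% of protein-coding genes had one, as did all 9 genes here, by their selection. Within 1 kb the share was 0.426%, again with all 9 genes in it.

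All 9 starts lay downstream of their pooled summit, at a median of 163 bp (1 to 617). The genes were picked as starts at promoter peaks, and 5 of the 9 share a peak with another, so this count is not free of the selection. At cux-7 the side differed between replicates: the summit was 19 bp upstream of the start in replicate 1 and 2 bp downstream in replicate 2. At the 54 other thresholded peaks with a protein-coding start within 1 kb, the summit was upstream of 52 of 76 such starts (68.4%). None of the 6 pooled summits fell within an annotated exon, while 41 of the other 109 thresholded summits (37.6%) and 48.2% of background summits did. Of the 54 others with a protein-coding start within 1 kb, 20 (37%) had their summit in an exon. The 6 peaks were picked as promoter peaks, so this contrast too is not free of the selection. At 2 of the 6 peaks more than 1 start lay within 1 kb, with genes read in opposite directions in both cases, and these were the peaks of ranks 1 and 3. Among the other 54 thresholded peaks with a protein-coding start within 1 kb, 20 (37%) had at least 2 starts there, close to the 33.3% here.

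Of the 6 peaks, 3 were narrower than the full 384 bp to which nearly every peak of the list was set: 186 bp at F56G4.6 and wbp-4, 156 bp at cux-7, and 136 bp at pinn-1. Only 2 of the other 109 thresholded peaks were, those of ranks 2 and 11. All narrower peaks of the list thus had rank 11 or better, so this contrast is not free of the selection by signal. In replicate 2 the peak at cux-7 was 110 bp wide, the narrowest of that list, while at pinn-1 it had full width in both replicates. How the peak caller sets widths is not given in the sources used here.

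Each of the 6 peaks had a summit within 100 bp in both replicates, and ranked among the 25 strongest of each. Of all thresholded peaks, 87% were found in both, and of the 29865 pooled peaks more than 500 bp from any of them 26.7%. Of the 54 other thresholded peaks with a protein-coding start within 1 kb, 53 (98.1%) were found in both. Of the other 109 thresholded peaks, 11 ranked among the 25 strongest in both replicates. These 11 were all the other peaks with a pooled rank better than 17, the lowest rank among the 6. The pooled signal is made from the same reads. High ranks in both replicates thus follow from the choice of genes by signal and do not set the 6 peaks apart.

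**Figure D2:**
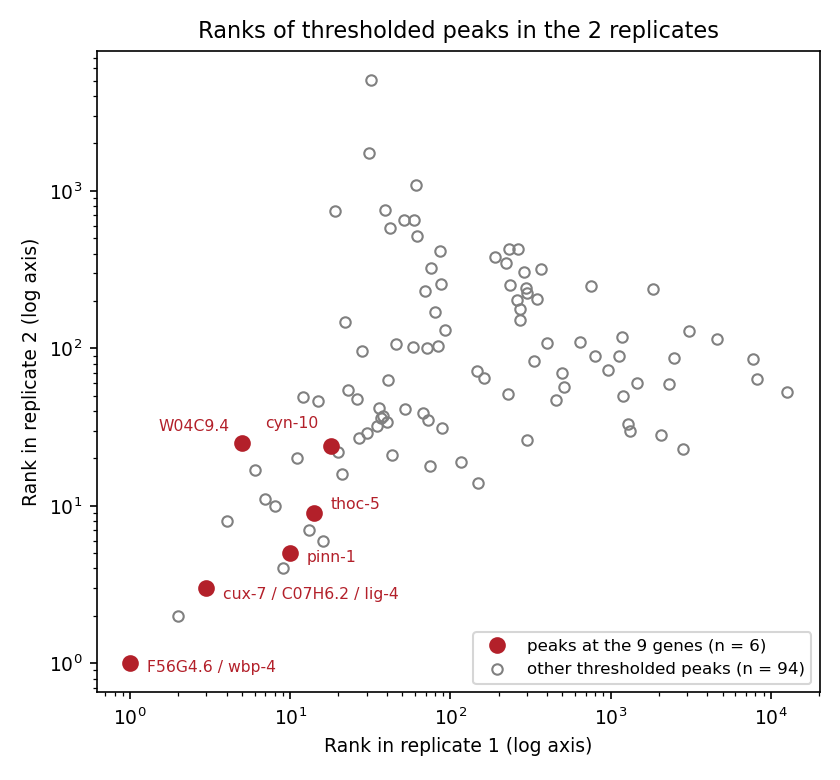
Rank in replicate 2 against rank in replicate 1 (both log axes) for thresholded peaks with a summit within 100 bp in both. The 6 peaks at the 9 genes (filled) sit at ranks 1 to 18 in replicate 1 and 1 to 25 in replicate 2, and the other 94 (open) reach far lower ranks in either. Of the open points, 11 also rank among the 25 strongest in both.

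The peaks nearest to these in strength were not all at genes of the set. Of the 25 strongest, 15 had a protein-coding start within 1 kb, and 9 of those belong to other genes, 12 in number. Y56A3A.7 (rank 2, signal 563), rpl-3 of the large ribosomal subunit (rank 5, 324), T07F10.3 (rank 7, 307), and F44E5.4 with F44E5.5, both of the Hsp70 family (rank 11, 287), stood among the genes here by signal. So did egg-5 (rank 13, 275) and the shared peak of tim-1 and Y75B8A.23 (rank 15, 256). The lowest of the set, cyn-10, had a signal of 247. Next below were ftt-2, a 14-3-3 gene (rank 18, 232), C47E8.4 with hsp-90 (rank 19, 230) and rpl-35 (rank 25, 224). None of these 9 peaks held CCGAGAGGA within 100 bp. Its presence at all 6 peaks of the set is fixed by how the word was found, so nothing is read from that contrast.

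Over the whole list, CCGAGAGGA lay within 100 bp of 13 thresholded summits (11.3%), the 6 here, which defined it, and 7 of the other 109 (6.42%). It lay at 0.167% of background summits, and from 250 bp before to 50 bp after the start of 0.546% of protein-coding genes. Among as many of the strongest peaks of replicate 1 alone it lay at 12 summits, and of replicate 2 alone at 11. All 13 also held the 13-letter pattern, as did 0.077% of the background. In the genome the word had 683 copies on both strands, of which 338 were part of the longer pattern. Only 13 (3.85%) of these 338 lay within 100 bp of a thresholded summit and 39 (11.5%) of a pooled one. Of the 325 elsewhere, 155 (47.7%) had a protein-coding start within 1 kb. Most copies, including many near gene starts, were thus without a strong peak.

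The copies were placed alike. An exact copy was centred 12 to 31 bp from each of the 6 summits (median 26), 2 to 28 bp from the 7 other thresholded summits with the word (median 22), and 8 to 83 bp from the 50 background summits with it (median 44). The word was found by a search within 60 bp of the 6 summits, while copies at the other summits were sought within 100 bp. The distances at the 6 are therefore limited by how the word was found, and nothing is read from their contrast with the background. All 6 exact copies read toward the summit, that is, on the forward strand to its left or on the reverse strand to its right. With copies that differ by 1 base, 9 of 9 did, and the same 9 of 9 held for the summits of replicate 1 and for those of replicate 2. The same copies are counted each time, and the pooled summits rest on the reads of both replicates. These counts are therefore not independent. At the other thresholded peaks 6 of 7 exact copies read toward the summit, and at background peaks 30 of 51 (58.8%).

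At 3 of the 6 peaks, those of F56G4.6 and wbp-4, of cux-7, C07H6.2 and lig-4, and of W04C9.4, a second copy with 1 mismatch lay on the opposite strand, so that the summit stood between a facing pair. The centres of the pairs were 49, 67 and 57 bp apart. Such pairs, both strands with at most 1 mismatch each, occurred at 1 of the other 109 thresholded peaks and at 0.0167% of background peaks. An exact copy at each of the 6 peaks is fixed by how the word was found, so nothing is read from that contrast. None of the 7 other thresholded peaks with the word had such a pair. The pair at cux-7 can be traced in the sequences above: the exact copy lies in the 5′ untranslated region of its longest transcript, 28 bp past the start, and the copy with 1 mismatch lies upstream of the start. With respect to the genes there was no common orientation, as the exact copy was on the gene's strand for F56G4.6, C07H6.2, lig-4 and pinn-1 and on the other strand for wbp-4, cux-7, thoc-5, cyn-10 and W04C9.4. Its distance from the start was 28 to 646 bp, upstream for every gene except cux-7.

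**Figure D3:**
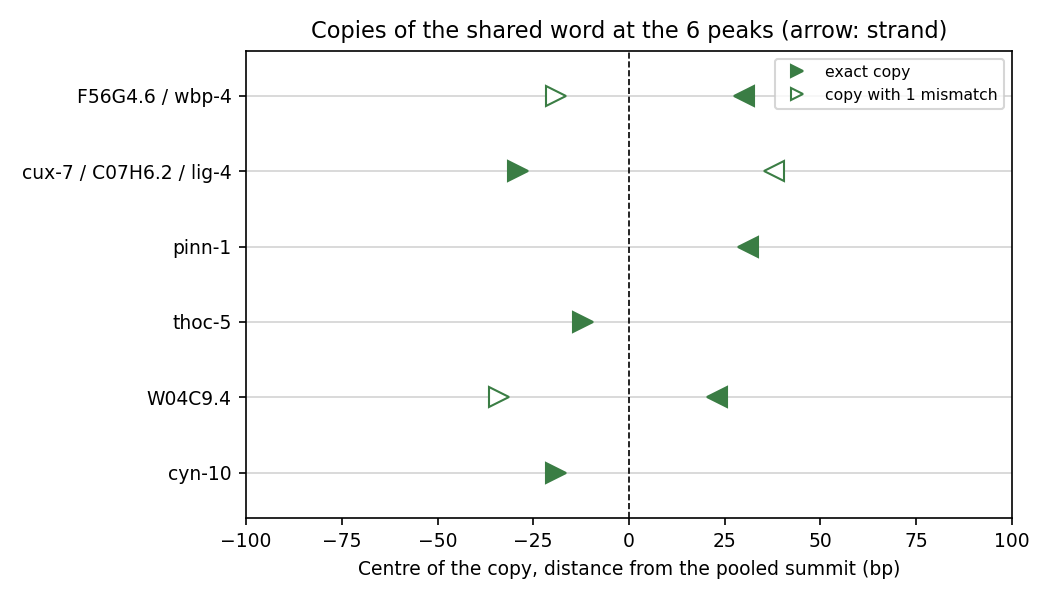
Position of each copy of the shared word, as the distance in bp of its centre from the pooled summit (dashed line), at the 6 peaks; filled arrows are exact copies, open arrows copies with 1 mismatch, and the arrow gives the strand. All 9 arrows point toward the summit, and 3 peaks have a facing pair.

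Other short words were shared less completely. Within 100 bp of the summit, GGCCTA lay at 4 of the 6 peaks, against 13.8% of the other thresholded peaks and 4.07% of the background. CTAGGC lay at 3 of the 6, against 13.8% and 4%, and GTACAC at 3 of the 6, against 16.5% and 5.58%. These words too came from the earlier scan. GTACAC can overlap the end of the 13-letter pattern, as in the copy at cyn-10 above, and all 3 longer stretches above hold ggcctag, in which GGCCTA and, on the other strand, CTAGGC overlap.

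The E-box was not a shared feature. CANNTG lay within 50 bp of 1 of the 6 summits, as CACATG 15 bp from the summit at cux-7, and 35.7% of all thresholded summits and 38.5% of background summits had one. The count stayed at 1 when 25 or 100 bp were searched. No test was made on 6 peaks. GC content within 50 bp of the summit was 44.6 to 52.5% (49% as median), while the median was 45.5% over the other thresholded peaks and 40.6% over the background.

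Genes listed as relatives of these genes were without a thresholded peak. Of the 55 genes listed in 7 families or processes, 51 could be matched by name, among them 6 of the 9 genes, and 0 of the 45 others had a thresholded summit within 5 kb. With a share of 1.31% over all protein-coding genes, a count of 0 in 45 is close to the background and says nothing particular about the families. A pooled peak lay within 5 kb of 38 of the 45, at a median rank of 5052.5 and at best rank 632.

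Among THO and mRNA export genes, thoc-5 had rank 9, and the best pooled rank of the 8 others was 2366, at the export adaptor gene aly-1. For thoc-2, the strongest pooled peak within 5 kb had rank 4449. The strongest peak of each replicate there had rank 307 in replicate 1 and 8014 in replicate 2, and these were not matched by position. Of the end-joining genes, cku-80, whose product binds broken DNA ends with that of cku-70, had a pooled rank of 3033, and lig-1, a ligase of DNA replication, had 3581. Among 15 other cyclophilins the best ranks were 632 at cyn-4 and 686 at cyn-17. Of 8 FKBP isomerases, the third isomerase family, 5 had a pooled peak, at best rank 2010 (fkb-5). The tcer-1 gene, listed with wbp-4, had rank 771. The cux-7 gene was listed with the CUT homeobox genes by its name alone, and whether it belongs to that family was not checked. The best of the others on that list was rank 1456 at dve-1. The tagged gene itself, hlh-17, had 0 thresholded peaks within 5 kb. Its strongest pooled peak there had rank 1089 and a signal ratio of 1.57. The strongest peak of each replicate, again not matched by position, had a ratio of 1.84 in replicate 1 and 1.66 in replicate 2.

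**Figure D4:**
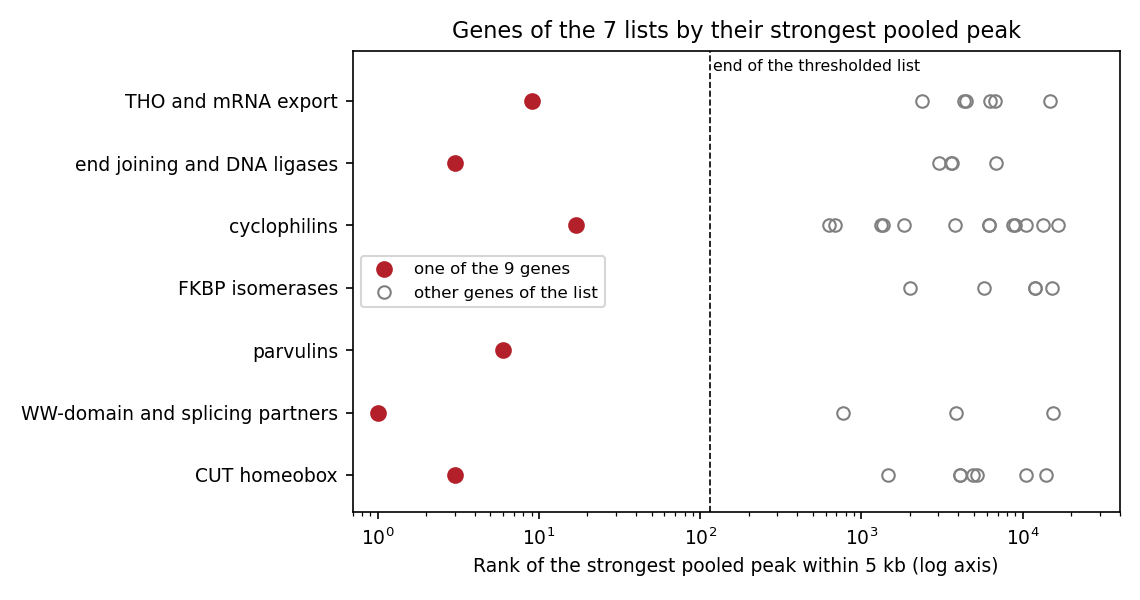
Rank of the strongest pooled peak within 5 kb of each gene start (log axis) for the 7 gene lists; filled points are genes of the set, open points the other genes of each list with such a peak, and the dashed line is the last rank of the thresholded list. The filled points stand at ranks 1 to 17 and the open points at rank 632 or weaker. The point for cux-7 stands in the CUT homeobox list by its name alone.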

How the data were processed

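Peaks came from ChIP-seq in 2 biological replicates. Per the deposited notes, relaxed lists were called for each replicate and for both pooled, against the same control on ce11, and a thresholded list was derived from them. The aligner and the caller were not given in the sources used here. Each peak's signal was used as deposited by the authors, on a scale they do not state. A deposited score, −log10 of an estimated q by the file format, can lie below 0. Replicate numbers came from the labels. They mark biological replicates, and no test was made.

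Summits were compared with Ensembl release 115 gene starts (WBcel235, the assembly that ce11 denotes). All peaks ended within its chromosome lengths. Words were searched on both strands of the RefSeq sequence, and repeats with BLAST 2.17.0. Background peaks were pooled peaks over 500 bp from every thresholded summit. Search routines were tested on simulated data. Genes named are the 9 chosen, other protein-coding genes within 1 kb of the 25 strongest summits, family members and hlh-17. Family genes in the text were the best-ranked and others picked after their values were seen. Genes, lists and tests were chosen with earlier results of these data known, and the shared word after the sequences were seen.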

Additional observations from a re-analysis of the deposited data

How the results depend on the processing

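Of 40 alternatives run for 9 results, 35 left the value as reported, within a factor of 1.5 for counts. The 9 genes and 6 peaks were the same with windows of 1 or 10 kb, with any transcript start, with peaks of an estimated q of 1 or less, and with as many of the strongest peaks of 1 replicate alone. That all 9 genes kept a peak follows from their choice, and adds no support. Their summits lay 1 to 617 bp away, and the peaks ranked among the 25 strongest of each replicate. Distinct pooled peaks near the starts numbered 10 within 1 kb and 44 within 10 kb, against 23 within 5 kb. This follows from the window. The median signal ratio of the 6 peaks to the median of the thresholded list was 1.80. Dividing the signals of the pooled list by the same median had to return 1.80, because both lists hold the same signals for these peaks. Among the 38 peaks with an estimated q of 1 or less it was 1.34, where the divisor is taken over stronger peaks, and without 1 replicate 1.72 to 1.74. The word was at 13 thresholded peaks when 50 or 200 bp were searched, at 10 with an estimated q of 1 or less, and at 11 to 12 without 1 replicate. These alternatives for the word were chosen after seeing the data. No paired analysis was possible because the samples form 1 group. Depth is unknown, so absence of a peak is not absence of binding.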

Other observations

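The 7 other thresholded peaks with CCGAGAGGA, found after the word had been read from the peaks of the chosen genes, lay at lower ranks. That of rank 38 was 143 bp from the start of F13A7.14 and ranked 28 in replicate 1 and 96 in replicate 2. That of rank 49 was 51 bp from C45G9.2, at ranks 1288 and 33. The peak of rank 70 was 199 bp from ced-5, which acts in the engulfment of dying cells, at ranks 39 and 751, and that of rank 78 was 243 bp from the caveolin gene cav-2, at ranks 59 and 650. The peak of rank 26 was 525 bp from dhhc-4, at ranks 43 and 21. The peaks of ranks 21 and 29 lay 3263 and 3775 bp from Y65A5A.2, in the same stretch of chromosome IV, with ranks 15 and 46 for the first and 116 and 19 for the second. Thus 5 of these 7 were within 1 kb of a protein-coding start. The gene named is the nearest protein-coding one. The peaks of ranks 49, 70 and 78 each had 2 protein-coding starts within 1 kb. At rank 26 the start of a non-coding RNA gene, ZK757.7, lay closer, at 432 bp.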
